A study of Mus musculus with 9 samples.

Results

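The genes described here are 4 long noncoding RNAs that lie beside genes of islet endocrine cells: Plut at Pdx1, Paupar and Pax6os1 at Pax6, and Pcsk2os1 at Pcsk2. They were taken by name from a deposited table of 10706 named loci that is made up mostly of long noncoding RNA genes, and the transcript lines that carry 1 name were summed. The 4 names hold 8 lines, and all 4 passed the minimum mean level of 0.5 FPKM that 2377 loci passed. FPKM is the number of fragments at a transcript scaled by its length and by the number of fragments in the library. Islets, the clusters of hormone cells in the pancreas, came from female mice, either virgin (5 libraries) or pregnant at gestational day (GD) GD14.5 (4 libraries), and their poly(A) RNA was sequenced in bulk. The labels give no strain, age, genetic change or further treatment for either group. Nor do they state how many animals are behind a library, so each p-value refers only to the spread among the libraries, which may be technical.

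Pdx1 and Pax6 encode homeodomain transcription factors that establish the endocrine pancreas and keep beta cells in their mature state, and Pcsk2 encodes prohormone convertase 2, a protease that cuts hormone precursors in secretory granules. The human counterpart of Plut is known to promote transcription of PDX1 in beta cells, Paupar is known as a nuclear RNA that acts together with the Pax6 protein and affects Pax6 splicing, and Pax6os1 is transcribed from the opposite strand of Pax6. In pregnancy, placental hormones raise beta cell number and insulin release. The messenger RNAs of Pdx1, Pax6 and Pcsk2 are not analysed here. Of 8 beta cell marker genes looked up by name, 0 had a line, so the cell type that holds the 4 RNAs was not checked in these libraries.

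All 4 genes are on the strand opposite to their coding neighbour. On GRCm38, as annotated by GENCODE, Plut spans chromosome 5 from 147228596 to 147271521, and its first exon lies in an intron of Pdx1, 1562 bp past the start of Pdx1. Pax6os1 spans chromosome 2 from 105536080 to 105670330 and starts in an intron of Pax6, 1430 bp past its start. Paupar has a single exon of 3482 bases at 105657862 to 105661343 on the same chromosome. Its start lies 7557 bp upstream of that of Pax6, and the whole gene lies within an intron of Pax6os1, on the same strand. Pcsk2os1 spans chromosome 2 from 143535476 to 143547837. One of its 2 GENCODE models starts in an intron of Pcsk2, 1681 bp past the start of that gene, and the other starts 179 bp upstream of it. Exons of Pcsk2os1 share 260 bases with exons of Pcsk2, which is 5.84% of the exonic bases of Pcsk2os1, while those of Plut, Paupar and Pax6os1 share 0 bases with exons of their neighbours. Whether counting used strand is not given in the sources used. If it did not, Pcsk2 reads from those 260 bases cannot be told apart from reads of Pcsk2os1. The same would then hold for unspliced precursors of the coding genes where Plut, Pax6os1 and Pcsk2os1 overlap them. Paupar shares 0 bases with the Pax6 gene. Reads from unspliced Pax6os1 RNA would fall on Paupar and have the same strand, so these 2 cannot be told apart even by strand.

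**Figure D1:**
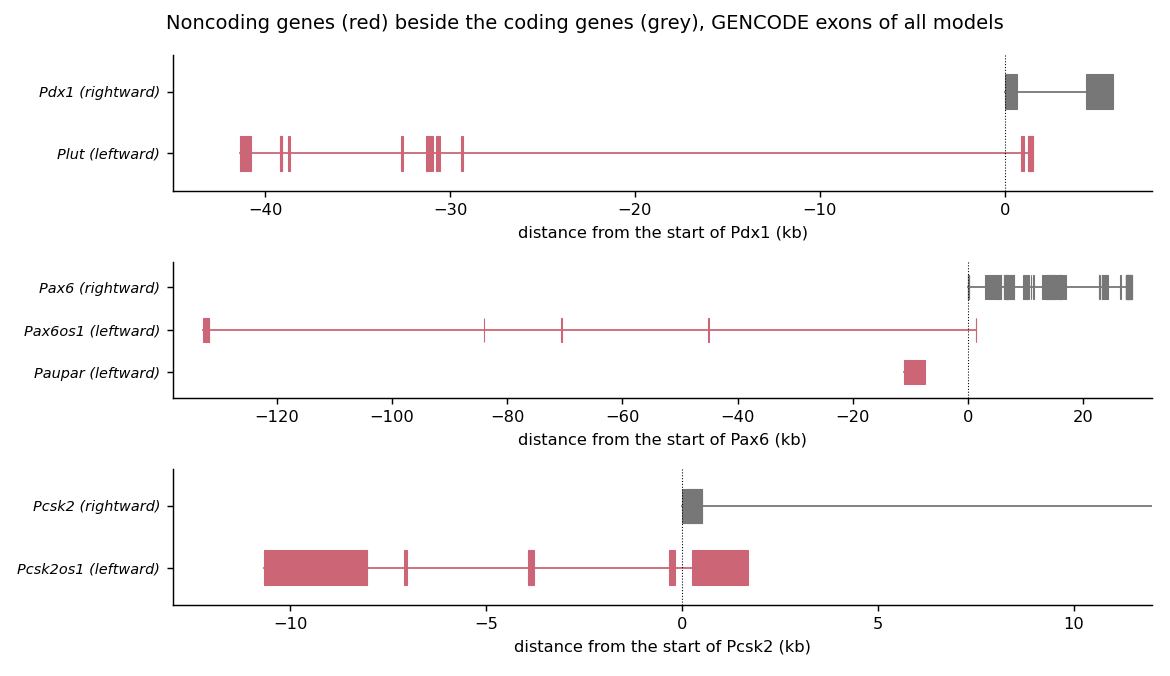
Maps of the 3 loci, with distance from the start of the coding gene in kb on the horizontal axis, boxes for the exons of all GENCODE models and lines for the genes; coding genes are grey and transcribed to the right, noncoding genes are red and transcribed to the left. Plut, Pax6os1 and Pcsk2os1 start inside their coding neighbour and run out of it past its start, while Paupar lies upstream of Pax6; Pcsk2 runs on past the right edge of its map.

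The sequences at the starts of these RNAs are shown because 3 of the 4 starts lie inside the coding neighbour, within 1.7 kb of its own start. For Plut, Pax6os1 and Pcsk2os1 the RefSeq promoter windows of GRCm38.p6 are given, with 250 bases before the start and the first 50 bases of the RNA. For Paupar the first 200 bases of the GENCODE transcript are given. All are on the minus strand and are written 5′ to 3′, and capitals mark bases that are part of the RNA. They are Plut at chr5:147271472-147271771, Pax6os1 at chr2:105670281-105670580, Pcsk2os1 at chr2:143547788-143548087 and Paupar at chr2:105661144-105661343.
Plut: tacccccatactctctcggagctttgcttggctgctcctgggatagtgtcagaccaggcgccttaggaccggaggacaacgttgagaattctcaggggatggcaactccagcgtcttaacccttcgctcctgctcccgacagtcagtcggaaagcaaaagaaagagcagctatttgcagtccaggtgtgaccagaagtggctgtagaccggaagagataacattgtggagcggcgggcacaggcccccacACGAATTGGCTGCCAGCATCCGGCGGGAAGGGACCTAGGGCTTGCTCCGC
Pax6os1: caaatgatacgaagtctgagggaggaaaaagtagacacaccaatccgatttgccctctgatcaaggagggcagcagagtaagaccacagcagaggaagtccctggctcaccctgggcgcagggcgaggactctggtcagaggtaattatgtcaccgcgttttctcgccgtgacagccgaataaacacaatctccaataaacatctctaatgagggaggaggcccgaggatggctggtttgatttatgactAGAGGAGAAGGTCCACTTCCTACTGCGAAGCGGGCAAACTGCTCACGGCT
Pcsk2os1: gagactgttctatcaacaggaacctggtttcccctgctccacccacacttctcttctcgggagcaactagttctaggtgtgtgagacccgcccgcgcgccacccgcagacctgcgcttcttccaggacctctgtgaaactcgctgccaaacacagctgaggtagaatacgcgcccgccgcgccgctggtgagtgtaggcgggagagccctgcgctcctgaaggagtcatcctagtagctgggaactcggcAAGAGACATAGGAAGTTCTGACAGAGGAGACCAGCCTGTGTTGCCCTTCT
Paupar: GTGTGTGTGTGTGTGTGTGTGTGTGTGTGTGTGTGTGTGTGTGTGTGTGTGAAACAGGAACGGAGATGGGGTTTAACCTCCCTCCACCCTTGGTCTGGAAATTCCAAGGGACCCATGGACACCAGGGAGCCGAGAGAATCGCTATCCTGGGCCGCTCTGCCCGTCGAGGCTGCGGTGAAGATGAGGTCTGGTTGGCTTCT

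In the 3 windows the RefSeq start coincided with the start of a GENCODE model of the same gene. None of the windows overlapped an exon of the coding neighbour. GC content was 58.0% for Plut, 52.3% for Pax6os1 and 59.0% for Pcsk2os1, against a median of 52.7% over the windows of 27025 genes, and the windows held 15, 13 and 17 CG dinucleotides against a median of 7. All 3 windows lay between the lower and upper quartiles of those genes. The quartiles were 45.7% and 61.7% for GC content and 3 and 21 for CG dinucleotides. The Paupar transcript opens with a GT repeat of 51 bases. Both strands of the 3 windows were searched for 6 motifs that factors of endocrine cells or the basal machinery are known to read. TAATTA, a homeodomain core, was found once, 108 bases before the start of Pax6os1; 5.31% of the windows of all genes hold it. CAGCTG, an E-box, was found 98 bases before the start of Pcsk2os1 and is in 16.1% of all windows. The E-box CATCTG (in 17.2% of all windows), the forkhead motif TGTTTAC (in 3.55%), the Maf-type motif TGCTGA (in 19.1%) and the TATA box TATAAA (in 14.2%) were not in these 3 windows. Only these exact spellings were searched, so other forms of the same motifs may be present. No motif overlapped another. A match is only a match of letters.

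The summed FPKM of the libraries ranged from 5415 to 20531, a factor of 3.79, and the 3 largest sums were those of virgin replicate 5, virgin replicate 4 and GD14.5 replicate 4. Fragment totals are not in the table, so the depth behind each value is unknown. The 4 RNAs together took 0.145% to 0.229% of the summed FPKM. Of 42 marker genes in 9 lists of islet and other cell types, 3 had a line: Sox9 (ductal) at 0 to 0.01 FPKM, Col1a1 (stromal) at 0 in all libraries and Col3a1 (stromal) at 0 to 16.2 FPKM in virgin and 0 to 8.46 FPKM in GD14.5 libraries. The other 7 lists had no line, and Col3a1 was above 0 in virgin replicate 2 and GD14.5 replicates 2 and 4 only. Their part in the results below was not tested. In bulk islets, fewer cells of a type and less RNA per cell cannot be told apart.

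Plut had the highest mean FPKM of the 4 over the 9 libraries, though not the highest level in each library. Its level was 3.01, 7.44, 3.37, 12.1 and 17.4 FPKM in virgin replicates 1 to 5, and 3.62, 3.26, 3.03 and 8.19 FPKM in GD14.5 replicates 1 to 4. Within each group the libraries with the largest summed FPKM were the highest, and the groups overlapped. The means were 8.67 ± 6.13 FPKM (SD, n = 5) in virgin and 4.53 ± 2.46 FPKM (SD, n = 4) in GD14.5 islets. The difference on the log2(FPKM + 0.5) scale, GD14.5 minus virgin, was −0.69 ± 0.55 (SE; limma 95% interval −1.82 to 0.44) and was within the spread among libraries (limma adjusted p = 0.817; exact permutation p = 0.294).

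Paupar varied least. It was at 2.64, 4.76, 2.91, 6.90 and 7.78 FPKM in virgin replicates 1 to 5 and at 3.18, 2.99, 2.76 and 4.33 FPKM in GD14.5 replicates 1 to 4. The 4 GD14.5 values lay within the range of the virgin ones. The means were 5.00 ± 2.31 FPKM (SD, n = 5) and 3.32 ± 0.698 FPKM (SD, n = 4), and the log2 difference was −0.44 ± 0.46 (SE; 95% interval −1.38 to 0.51; limma adjusted p = 0.817; exact permutation p = 0.246).

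Pax6os1, from the same locus, was at 1.88, 3.76, 3.19, 9.37 and 11.3 FPKM in virgin replicates 1 to 5 and at 1.71, 2.95, 2.78 and 6.61 FPKM in GD14.5 replicates 1 to 4. Replicates 4 and 5 of the virgin group and replicate 4 of the GD14.5 group were again the highest. The means were 5.90 ± 4.16 FPKM (SD, n = 5) and 3.51 ± 2.14 FPKM (SD, n = 4), and the log2 difference was −0.55 ± 0.53 (SE; 95% interval −1.64 to 0.54; limma adjusted p = 0.817; exact permutation p = 0.341).

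Pcsk2os1 had the smallest difference. It was at 1.93, 4.76, 3.68, 8.79 and 10.5 FPKM in virgin replicates 1 to 5 and at 2.60, 3.33, 3.19 and 8.23 FPKM in GD14.5 replicates 1 to 4. Virgin replicate 1 was below all GD14.5 libraries, and virgin replicates 4 and 5 were above them. The means were 5.93 ± 3.58 FPKM (SD, n = 5) and 4.34 ± 2.61 FPKM (SD, n = 4), and the log2 difference was −0.34 ± 0.52 (SE; 95% interval −1.41 to 0.73; limma adjusted p = 0.819; exact permutation p = 0.548).

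**Figure D2:**
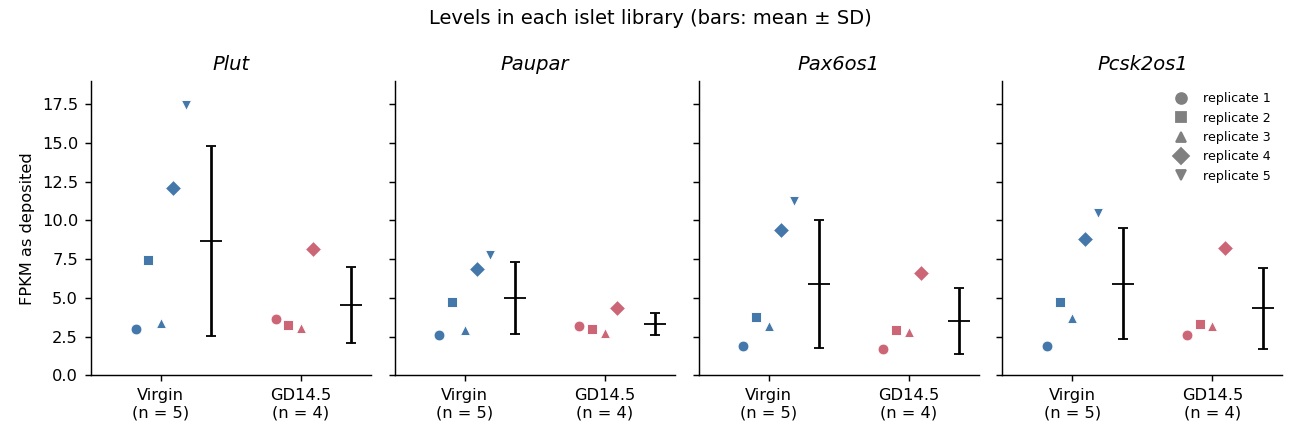
FPKM as deposited (vertical axis) of the 4 RNAs in each virgin (blue) and GD14.5 (red) library; marker shapes give the replicate number and bars the mean and SD. Replicates 4 and 5 of the virgin group and replicate 4 of the GD14.5 group are the highest of their group for all 4 RNAs, and the groups overlap.

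Thus limma called 0 of the 4 RNAs at an adjusted p under 0.05, and 0 at an unadjusted p under 0.05. The background share of calls over all loci was 0.168% (4 of 2377 loci, 4 higher and 0 lower). At an unadjusted limma p under 0.05, 26 loci were higher and 34 lower. The groups did not overlap at 0.589% of loci and overlapped for all 4 RNAs. The median log2 difference of the 4 RNAs was −0.49 and that of all tested loci −0.30, so all loci together leaned in the same direction. The part of this in the difference of each RNA was not tested. With the replicate number as a block the share called was 1.09% (26 loci, 23 higher and 3 lower) and 0 of the 4 RNAs were among them. The blocked log2 differences were −0.38 ± 0.25 for Plut, −0.26 ± 0.22 for Paupar, −0.26 ± 0.20 for Pax6os1 and −0.09 ± 0.21 for Pcsk2os1 (SE), with limma adjusted p from 0.668 to 0.869, and their median was −0.26 against −0.13 over all loci. Virgin replicate 5 has no same-numbered GD14.5 library, so the block takes it out of these differences. The blocked differences therefore equal those without that library, which had the largest summed FPKM. Of the 4 same-numbered pairs, GD14.5 was lower in 4 for Pax6os1 and in 3 for each of the other RNAs. The share of all loci that were lower in as many pairs was not counted, so these counts have no background.

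Setting all libraries to equal medians narrowed the intervals. The log2 difference was then −0.34 for Plut (95% interval −0.73 to 0.05), −0.10 for Paupar (−0.43 to 0.24), −0.21 for Pax6os1 (−0.60 to 0.19) and 0.01 for Pcsk2os1 (−0.29 to 0.30), with limma adjusted p from 0.543 to 0.990 and a share of 1.22% called over all loci. With equal library totals Plut had an unadjusted limma p of 0.0484 (log2 difference −0.42, limma adjusted p = 0.441). It was the only unadjusted p under 0.05 for any of the 4 RNAs in 20 alternative settings. In that setting 84 loci were higher and 183 lower, of 2377, at an unadjusted limma p under 0.05. Among the 6 libraries with smaller sums (3 virgin, 3 GD14.5) the differences were −0.33, −0.14, −0.19 and −0.10 for Plut, Paupar, Pax6os1 and Pcsk2os1, against a median of −0.07 over all loci. Among the 3 libraries with the largest sums (2 virgin, 1 GD14.5) they were −0.79, −0.70, −0.60 and −0.21, against a median of −0.40; these differences were not tested.

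**Figure D3:**
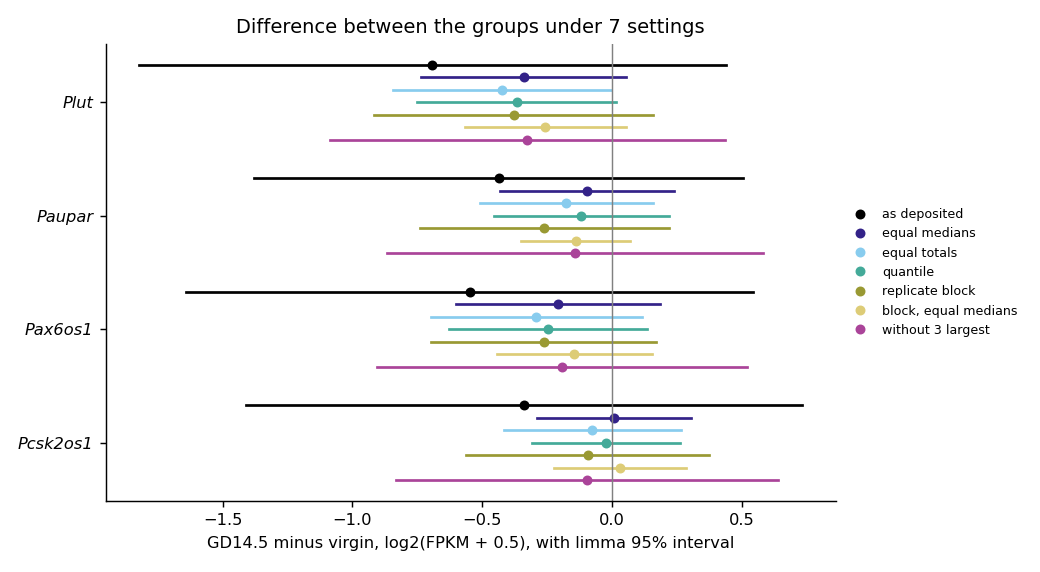
Difference GD14.5 minus virgin on the log2(FPKM + 0.5) scale (horizontal axis, points) with limma 95% intervals (lines) for each RNA under 7 settings, coloured by setting. The points lie below 0 except for Pcsk2os1 on equal medians without and with the block (0.01 and 0.03), and the interval of Plut with equal totals ends just below 0 while all others hold 0.

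Relative to the other loci of the same library, the 4 RNAs were in the upper part of the table throughout. Plut exceeded 90.6% to 95.8% of the tested long noncoding RNA loci in each library, Pcsk2os1 89.8% to 93.3%, Paupar 85.1% to 92.6% and Pax6os1 81.7% to 93.0%. Plut stood at 4.88 ± 1.13 times the library median, Pcsk2os1 at 3.89 ± 0.502 times, Pax6os1 at 3.46 ± 0.698 times and Paupar at 3.44 ± 0.561 times (SD, n = 9 libraries of both groups). After the library median was subtracted on the log2(FPKM + 0.5) scale, Plut was at 2.03 ± 0.442 in virgin (SD, n = 5) and 1.62 ± 0.280 in GD14.5 islets (SD, n = 4; exact permutation p = 0.143). For Paupar the median-relative levels were 1.46 ± 0.113 and 1.31 ± 0.155 (exact permutation p = 0.151), for Pax6os1 1.53 ± 0.368 and 1.27 ± 0.382 (exact permutation p = 0.333), and for Pcsk2os1 1.60 ± 0.277 and 1.54 ± 0.318 (exact permutation p = 0.802; n = 5 and 4, as for Plut). Paupar followed the library median most closely of the 4. Its SD over the 9 libraries was 0.147 on this scale, and 13.2% of all tested loci had a smaller one; for Plut, Pax6os1 and Pcsk2os1 the SD was 0.415, 0.376 and 0.278, against a median of 0.269 over all loci.

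**Figure D4:**
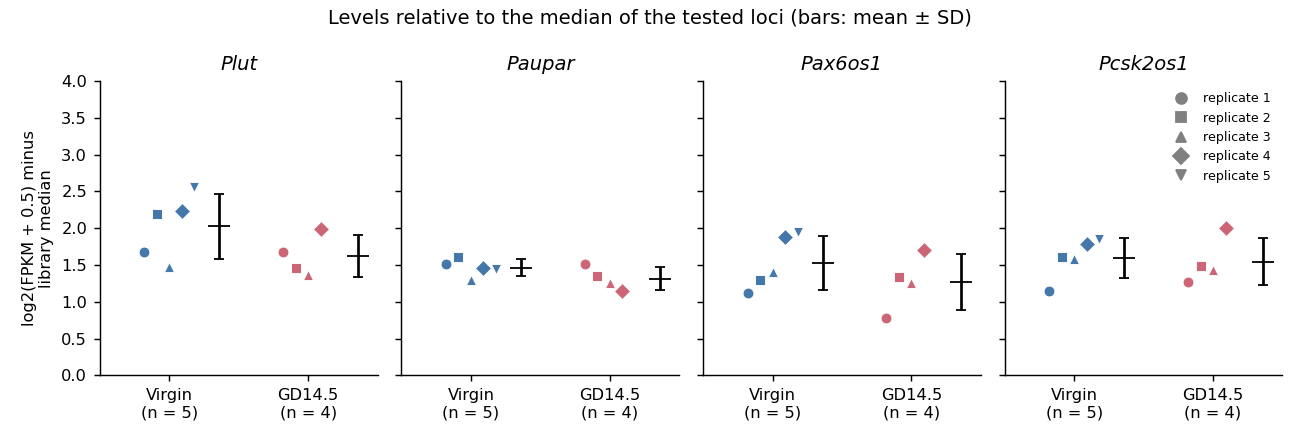
Level of each RNA relative to its library, as log2(FPKM + 0.5) minus the median of the tested loci (vertical axis), for virgin (blue) and GD14.5 (red) libraries; marker shapes give the replicate number and bars the mean and SD. Paupar stays between 1.15 and 1.60 in all 9 libraries, while Plut spans 1.37 to 2.56, and the groups overlap for all 4 RNAs.

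Ratios of FPKM between the RNAs within a library are the same however the library is scaled, and because FPKM is per length they compare levels between genes. The log2 ratios that were tested were taken after 0.5 was added to each FPKM, which draws them slightly towards 0. Plut was higher than Paupar and than Pax6os1 in 9 of 9 libraries, by factors of 1.09 to 2.24 and 1.06 to 2.12. Against Pcsk2os1, Plut was higher in 5 of 9 libraries (0.916 to 1.66 times), so these neighbours in the order of levels did not separate. Pax6os1 stood at 0.658 to 1.08 times Pcsk2os1 and was higher in 2 of 9, Paupar stood at 0.526 to 1.37 times Pcsk2os1 and was higher in 2 of 9, and Paupar was higher than Pax6os1 in 4 of 9.

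With all 9 libraries, the ratios did not differ between virgin and GD14.5 islets beyond the spread between libraries in any of the 6 pairs tested. Plut to Pcsk2os1 had the largest difference, with ratios of 1.56, 1.56, 0.916, 1.38 and 1.66 in virgin replicates 1 to 5 and 1.39, 0.979, 0.950 and 0.995 in GD14.5 replicates 1 to 4. The difference in the log2 ratio of FPKM + 0.5 was −0.35 (exact permutation p = 0.103, 0.429 adjusted over the 6 pairs). With 1 library left out, the exact permutation p, not adjusted over the pairs, ranged from 0.0286 to 0.25. The lowest was without virgin replicate 3, where the difference was −0.49. The pair with the least spread was Pax6os1 to Pcsk2os1, with an SD of the log2 ratio of FPKM + 0.5 of 0.192 over the 9 libraries. The difference in that log2 ratio between the groups was −0.21 (exact permutation p = 0.143, 0.429 adjusted over the 6 pairs). For the other 4 pairs the differences on the same scale were −0.26 for Plut to Paupar, −0.14 for Plut to Pax6os1, 0.11 for Paupar to Pax6os1 and −0.10 for Paupar to Pcsk2os1, with exact permutation p from 0.357 to 0.730.

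Paupar and Pax6os1, which come from overlapping stretches of the same strand, did not keep a fixed ratio. The ratio of Paupar to Pax6os1 was 1.40, 1.27, 0.912, 0.736 and 0.690 in virgin replicates 1 to 5 and 1.86, 1.01, 0.993 and 0.655 in GD14.5 replicates 1 to 4. In the 3 libraries with the largest summed FPKM it was 0.655 to 0.736, below its range of 0.912 to 1.86 in the other 6. Paupar to Pcsk2os1 likewise was 0.526 to 0.785 in those 3 libraries and 0.791 to 1.37 in the other 6, and Plut to Paupar was 1.76 to 2.24 and 1.09 to 1.56. These 3 libraries come from both groups, were set apart after their sums were seen, and were not tested against the rest. The parts of library composition and of unspliced Pax6os1 RNA in these ratios were not tested.

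The table gives Plut and Pax6os1 2 transcript lines each, Pcsk2os1 3 lines and Paupar 1 line, in each case without a transcript identifier. GENCODE lists 3, 2, 2 and 1 models for these genes, so a line cannot be matched to a model, and lines are numbered here by their order in the table. Line 1 of Plut held 83.9% ± 5.61 of its FPKM in virgin (SD, n = 5) and 87.2% ± 4.07 in GD14.5 islets (SD, n = 4), a difference of 3.23 percentage points (exact permutation p = 0.405) that was 0.865 without virgin replicate 3 and 5.12 without GD14.5 replicate 3. Line 1 of Pax6os1 held 77.1% ± 9.94 and 70.1% ± 4.35, a difference of −7.04 points (exact permutation p = 0.230). Both genes were thus measured mainly through 1 line in either group.

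Pcsk2os1 was spread over its 3 lines, and its line 2 took a larger share in every GD14.5 library than in any virgin library. Line 2 held 14.51%, 18.3%, 14.7%, 22.1% and 22.1% of the FPKM of Pcsk2os1 in virgin replicates 1 to 5 and 28.8%, 29.7%, 23.5% and 33.8% in GD14.5 replicates 1 to 4. The means were 18.3% ± 3.76 (SD, n = 5) and 29.0% ± 4.22 (SD, n = 4), a difference of 10.6 percentage points (exact permutation p = 0.00794, the smallest that 5 against 4 libraries allow, and not adjusted over the table). In FPKM, line 2 was at 0.28 to 2.32 in virgin and at 0.75 to 2.78 in GD14.5 libraries, with overlap.

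Line 3 of Pcsk2os1, the line with the highest mean, went the other way. It held 55.4%, 44.5%, 54.1%, 43.9% and 44.7% in virgin replicates 1 to 5 and 41.5%, 39.6%, 44.2% and 32.6% in GD14.5 replicates 1 to 4, so that GD14.5 replicate 3 lay above virgin replicate 4. The difference was −9.04 points (exact permutation p = 0.0397, not adjusted over the table; 0.0286 to 0.125 with 1 library left out). Line 1 held 33.1% ± 2.75 (SD, n = 5) and 31.5% ± 1.79 (SD, n = 4; exact permutation p = 0.365). Since the shares add up to the whole, the 3 differences are not independent.

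The same shares were compared for all 590 lines of 248 loci with at least 2 FPKM and 2 lines, where the line and the rest of its locus each had a mean of at least 0.5 FPKM. All GD14.5 libraries lay above all virgin ones for 1.86% of these lines (11 lines), and the groups did not overlap in either direction for 3.73%. In a limma fit of the log2 odds of each line against the rest of its locus, chosen after the shares had been seen, line 2 had a difference of 0.65 (95% interval 0.33 to 0.97) and did not pass over all lines (limma adjusted p = 0.0847; 0.148 with the replicate block). The adjusted p for lines 1 and 3 was 0.967 and 0.630. The share of lines called in this fit was 1.19% without and 1.02% with the block, and 0 lines of Plut, Pax6os1 and Pcsk2os1 were among them in either fit. Over 13 alternatives, the adjusted p of line 2 ranged from 0.0770 to 0.293.

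The larger share of line 2 was present in each part of the data. It was higher at GD14.5 in 4 of 4 same-numbered pairs. Among the 6 libraries with smaller sums it was 15.8% in virgin and 27.4% in GD14.5 islets, and among the 3 with the largest sums 22.1% and 33.8%. The difference ranged from 9.03 to 12.5 points when each library was left out in turn. Each of these values uses the libraries in which the shift was seen and is not separate support. Because every GD14.5 share was above every virgin share, no pairing, subset or omission could have given the other direction. How FPKM was divided among the lines of a gene is not stated, and the table gives no error for a line.

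**Figure D5:**
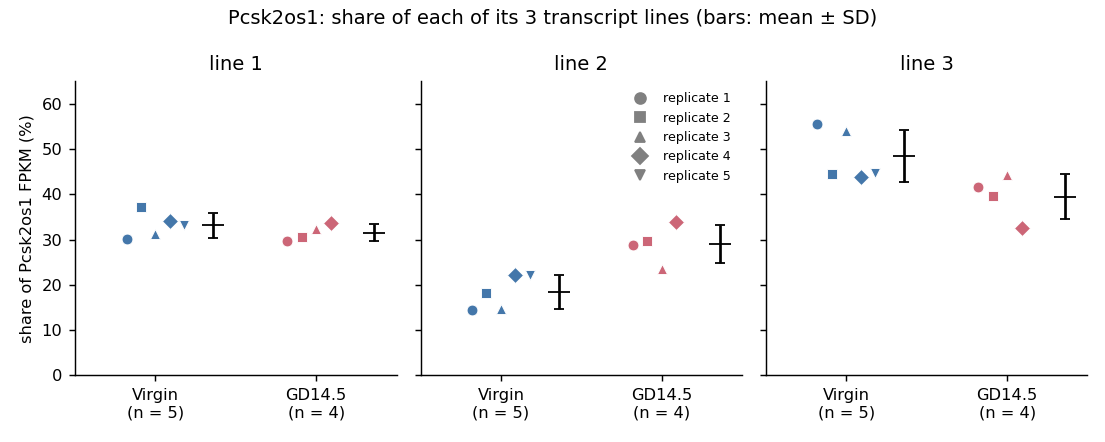
Share of the summed FPKM of Pcsk2os1 (vertical axis, percent) in each of its 3 transcript lines, for virgin (blue) and GD14.5 (red) libraries; marker shapes give the replicate number and bars the mean and SD. In line 2 the GD14.5 libraries, at 23.5% to 33.8%, are above the virgin libraries, at 14.51% to 22.1%; in lines 1 and 3 the groups overlap.

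Other noncoding loci near islet genes gave a frame for the 4 RNAs. Of 41 genes of islet transcription factors, hormones, secretion and glucose sensing, 1 (Pcsk1) had a line, and it was listed at 0 in all libraries. RefSeq long noncoding loci within 20 kb of these genes numbered 24 in the table, the 4 RNAs included, and of the other 20 loci 8 were tested. limma called 0 of these 8 without the block and 0 with it, where the shares over all loci were 0.168% and 1.09%. The log2 differences of the 8 loci ranged from −0.73 to 0.10. Their median was −0.42, beside −0.49 for the 4 RNAs and −0.30 over all loci.

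The 2 loci with the lowest log2 differences of these 8 are described here. 9030622O22Rik lies near Foxa2, the gene of a forkhead transcription factor, and Gm51481 lies near Abcc8 and Kcnj11, the genes of the ATP-sensitive potassium channel that couples glucose to insulin release. The level of 9030622O22Rik was 11.95 ± 6.83 FPKM in virgin (SD, n = 5) and 6.35 ± 2.33 FPKM in GD14.5 islets (SD, n = 4), with a log2 difference of −0.73 ± 0.54 (SE; limma adjusted p = 0.817). Gm51481 was at 7.09 ± 4.16 and 4.49 ± 2.60 FPKM, with a log2 difference of −0.53 ± 0.53 (SE; limma adjusted p = 0.817). The groups overlapped at both loci.

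The loci whose pattern over the 9 libraries was most like each RNA were found by the root mean square difference of median-relative log2 levels, with each locus set to a mean of 0; 2376 loci were compared for each. Nearest to Plut were Kif13b, which encodes a kinesin motor, Mbd2, which encodes a protein that binds methylated DNA, and the noncoding Gm16907, at 0.166, 0.168 and 0.172, where the median locus was at 0.460. Nearest to Pax6os1 were Ubn2 and the noncoding 4930422M22Rik and E130102H24Rik, at 0.0719, 0.0756 and 0.0868 (median 0.423). Nearest to Pcsk2os1 were the noncoding Gm36109 and Gm6288, at 0.0905 and 0.104, and between them Faf2 at 0.0938 (median 0.353). Nearest to Paupar were the noncoding Gm51569, Gm34544 and Gm51627, at 0.0818, 0.0875 and 0.0888 (median 0.295). Lines under Kif13b, Mbd2, Ubn2 and Faf2 are transcripts at coding genes whose identity the table does not give.

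Among themselves the 4 RNAs were not each other's nearest neighbours. Pax6os1 and Pcsk2os1, which lie at different places on chromosome 2, were the closest pair, at 0.181, with Pcsk2os1 the locus of rank 76 from Pax6os1 and Pax6os1 that of rank 148 from Pcsk2os1. Paupar and Pax6os1, at the same locus, were the most distant pair, at 0.415. These distances describe 9 libraries in which the 3 with the largest sums stand apart, and a small distance is also what 2 loci with little variation give.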

How the data were processed

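Poly(A) RNA of islets was sequenced for 5 virgin and 4 GD14.5 libraries. The authors deposited FPKM for all 9 libraries in 1 table of 26375 transcript lines, rounded to 2 decimals and with gene names only. Per the submitters' processing notes, GRCm38.p6 was used; aligner, quantifier, annotation and strandedness are not given in the sources used. FPKM lines of 1 name were summed after 480 lines marked as copies on other sequences were left out. Positions are from GENCODE M21 on GRCm38 and promoter windows from RefSeq on GRCm38.p6, which gave 3 of the 4 genes.

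Loci with a mean of at least 0.5 FPKM (2377) were compared by limma 3.58.1 (R 4.3.3) on the log2(FPKM + 0.5) scale (variance trend, two-sided, Benjamini-Hochberg over all loci, threshold 0.05). The method was tried on simulated data with larger changes than those of the 4 genes and without the spread of library sums. That trial therefore does not bear on differences of the size seen here. This scale understates changes of low loci. Permutation tests were exact and two-sided over all assignments of 5 and 4 libraries. For shares, an adjustment over these genes alone was planned; their exact p is printed unadjusted beside the limma fit over all lines. The genes, lists and tests were chosen with earlier results of these data known. Named in the text are the 4 genes, the 3 loci most like each, and noncoding loci within 20 kb of islet genes with a mean of at least 2 FPKM. Of the last, 2 loci are not reported here. Log2 ratios between genes were tested on FPKM + 0.5. Marker lists covered beta, alpha, delta, PP, acinar, ductal, endothelial, stromal and immune cells.

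Same-numbered virgin and GD14.5 libraries deviated from their group means together, with correlations across loci of 0.20 to 0.59 in 4 pairs, all above a limit of 0.1, so results of a fit blocked on the replicate number are given too. Differently numbered libraries gave −0.55 to 0.49, so the number is not a unique pairing. Virgin replicate 5 has no same-numbered GD14.5 library and does not enter the blocked differences. Alternatives were other pseudocounts, filters, scalings, the block and leaving out libraries.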

Additional observations from a re-analysis of the deposited data

Results flagged for a closer look

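Dixon's test at the 95% level was applied to 38 sets of values (the levels, ratios and shares, each within 1 group) and marked 1 library as standing apart in 2 of them; about 1.9 are expected by chance. The log2 ratio of Plut to Paupar, taken on FPKM + 0.5, was 0.85 in GD14.5 replicate 4 and 0.11 to 0.16 in the other GD14.5 libraries. On the same scale, the log2 ratio of Plut to Pcsk2os1 was 0.41 in GD14.5 replicate 1 and −0.06 to −0.01 in the other GD14.5 libraries.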

How the results depend on the processing

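Of 80 alternative values of the log2 differences of the 4 RNAs, 78 kept the negative direction and all 80 stayed above the threshold, with a smallest limma adjusted p of 0.373. The exceptions in direction were Pcsk2os1 on equal library medians (0.0083) and with the replicate block on equal medians (0.030). The other filters and the summing in of copies left each difference unchanged. The replicate block on deposited values repeats the differences without virgin replicate 5. These alternatives therefore add nothing on direction. With the replicate block on deposited values no call of the 4 RNAs changed, and blocked values are in the report. Leaving out 1 library at a time gave −0.99 to −0.38 for Plut, −0.61 to −0.26 for Paupar, −0.87 to −0.26 for Pax6os1 and −0.66 to −0.09 for Pcsk2os1, with the ends of each range set by virgin replicates 1 and 5 or GD14.5 replicate 4.

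Over all loci the count of calls was 4 as deposited, 29 with equal medians, 31 with equal totals, 29 after quantile normalization, 26 with the replicate block, 25 with the block on equal medians, 21 without the 3 libraries with the largest sums and 3 to 7 with 1 library left out (7 without GD14.5 replicate 4, 6 higher and 1 lower). As higher and lower loci, equal medians gave 25 and 4, equal totals 25 and 6, and quantile normalization 24 and 5. The cause was not tested.

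Of 114 alternative values of ratios and shares, 110 kept their direction and side of the threshold. Leaving out 1 library turned the difference in the ratio of Paupar to Pax6os1 (−0.12 to 0.31; negative without GD14.5 replicate 1) and of Paupar to Pcsk2os1 (−0.26 to 0.11; positive without virgin replicate 1, at 0.03, or GD14.5 replicate 4). The other ratio differences ranged from −0.44 (without GD14.5 replicate 4) to −0.12 (without virgin replicate 5) for Plut to Paupar, from −0.32 (without GD14.5 replicate 1) to −0.04 (without virgin replicate 2) for Plut to Pax6os1, from −0.49 to −0.29 for Plut to Pcsk2os1 and from −0.27 to −0.14 for Pax6os1 to Pcsk2os1 (without GD14.5 replicate 1). The share differences ranged from 0.86 to 5.12 points for Plut, from −10.3 (without virgin replicate 2) to −4.33 (without virgin replicate 5) for Pax6os1 and from −10.6 to −6.73 for line 3 of Pcsk2os1. With 0.5 FPKM added per line, the share difference of Plut was 0.68 points, and the share difference of line 3 of Pcsk2os1 was −6.85 points and passed the threshold that was planned over these genes (exact permutation p = 0.00794); the cause was not tested. With the replicate block it was −10.0 points. Read depth is unknown, and the 95% intervals of the differences as deposited leave room for more than a 2-fold fall in each of the 4 RNAs. They also leave room for a rise in each. With equal library medians the lower ends were −0.73 for Plut, −0.43 for Paupar, −0.60 for Pax6os1 and −0.29 for Pcsk2os1, short of a 2-fold fall.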

Other observations

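Other noncoding loci at Pcsk2 and Pdx1 were below the minimum level for testing. Pcsk2os2, within Pcsk2 on chromosome 2 (143747583 to 143789186), was at 0.06 to 0.65 FPKM in virgin and 0.03 to 0.13 FPKM in GD14.5 libraries. Gm52527 (143796038 to 143799466) was at 0.03 to 0.49 and 0 to 0.08 FPKM. The groups overlapped at both. Gm35112, near Pdx1, was at 0 to 0.06 FPKM in all libraries.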
